A study of Mus musculus with 6 samples.

Results

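Serpins are a family of protease inhibitors named by clade, from A to I, and the genes described here were taken from the rows of the expression table whose symbol is Serpin, a clade letter from A to I, and a number. The genes reported are 56 of the 26167 in the table, and 38 of them had enough reads to be tested, of 16513 genes tested. RNA was sequenced from Hepa1-6 tumors of female C57BL/6J mice aged 6 to 8 weeks, in which cells of this mouse hepatoma line had been injected under the skin. The treated mice were given sorafenib (Sora), an inhibitor of several kinases, ip at 10 mg/kg, first on day 9 and then on days 11, 13, and 15, and the control mice received no Sora. The labels number the 3 control tumors as 1, 3, and 4 and the 3 tumors of the Sora group as 2, 3, and 4, with 1 library per tumor. The model rests on 1 cell line grown outside the liver, and the libraries hold all cells of the tumor piece, so that fewer cells of a type and less RNA per cell cannot be told apart. The sources used here do not say that each tumor came from a separate mouse, and p-values measure the spread between these tumors only.

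A serpin presents a loop as bait to a protease, is cut, and then inserts the cut loop into its own beta sheet, which drags the bound protease along and distorts it, so that each inhibitor molecule is used once. Clade A members are mostly secreted by the liver, whereas most clade B members stay inside the cell and guard it against proteases such as granzymes and cathepsins. Single members of other clades control clotting (Serpinc1, antithrombin, and Serpind1, heparin cofactor II), the breakdown of clots (Serpinf2, the inhibitor of plasmin), and the start of the complement cascade (Serping1, C1 inhibitor). A few have lost the inhibitor function, such as Serpinh1, a chaperone of collagen.

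Each library held between 31073830 and 36205814 counted reads. Raw counts of 5 tumors were at hand, and those of Sora-treated tumor 4 were worked back from FPKM (reads scaled by gene length and library total). Among the marker genes of hepatocytes and hepatoma cells, the means of Alb, Trf, and Afp were 1306, 712, and 408 FPKM, and the list's summed level was 4980 to 6559 CPM in control and 4912 to 5184 CPM in Sora-treated tumors. CPM are counts divided by the library total, with the totals scaled by the TMM method of edgeR, and were used to compare tumors. FPKM were used to compare genes.

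Of the 38 serpin genes tested, 7 differed between the groups (adjusted p under 0.05, edgeR's quasi-likelihood test with Benjamini-Hochberg adjustment over all genes), or 18.4%, against 3.29% of all genes tested. Serpinb2 and Serpina3b were up-regulated, where 1.94% of all genes were, and Serpind1, Serpinb11, Serpinb7, Serpina3g, and Serpinb9 were down-regulated, where 1.34% of all genes were. The family did not move as 1 group. Its median log2 fold change (Sora-treated over control) was -0.079, with 19 genes above and 19 below 0, and the median of all genes tested was -0.00037. The 3 Sora-treated tumors all lay above the 3 control tumors in 5 of the 38 serpin genes, against 10.6% of all genes tested. They all lay below the controls in 10 of the 38, against 11.6% of all genes tested. With DESeq2 in place of edgeR, 11 serpin genes passed, against 7.71% of all genes with an adjusted p, and Serpinb7 did not (adjusted p = 0.073). The genes that DESeq2 added were Serpinb1b, Serpinb6e, Serpinb8, Serpinb9b, and Serping1.

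The calls depended on single tumors. Sora-treated tumor 3 was the nearest of its group to the control mean in 6 of the 7 genes, and Sora-treated tumor 4 was the nearest in Serpina3b. Without Sora-treated tumor 4, whose counts were worked back, edgeR called none of the serpin genes (16 had an unadjusted p under 0.05) and 0.0306% of all genes. DESeq2 on the other 5 tumors, whose counts were deposited, called 6 serpin genes and 2.99% of all genes, without Serpinb2 and Serpinb7 and with Serpinb6e. Without control tumor 1, 1 serpin gene was called (1.07% of all genes), without control tumor 3 there were 2 (1.94%), of which Serpina3j was not called with all tumors, and without control tumor 4 there were 2 (1.08%). Without Sora-treated tumor 2, 1 serpin gene was called (0.718% of all genes), and without Sora-treated tumor 3 there were 10 (7.03%). The serpin counts thus fell and rose with the counts over all genes. Serpind1 was called in 5 of the 6 fits that left out 1 tumor, Serpina3g in 2, and each of the other 5 genes in 1. The direction of all 7 was the same in every setting that gave a value.

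The called genes lie in part side by side. By the RefSeq annotation of the mouse genome (GRCm38.p6), the reported clade B genes of chromosome 1 form a row of 10, from 106861175 to 107608978. In this row, Serpinb11 and Serpinb7 were down-regulated and the next reported gene, Serpinb2, was up-regulated. RefSeq sequence before the start site was held for 48 of the 56 genes, in 57 windows of 250 bases. The letters TGANTCA, which read the same on both strands and include the AP-1 element TGAGTCA, were in 6.75% of all 32851 such windows and in 12 of the 57 serpin windows (21.1%), which belong to 11 genes. The single match of Serpinb2 lies in both of its overlapping windows, and Serpina1a, Serpina1b, Serpina1c, and Serpina1d, which are near copies of each other, account for 4 of the 11 genes. Of the 9 genes of the chromosome 1 row with sequence, 7 held them, and 2 held TGAGTCA or TGACTCA (4.46% of all windows). The matches are shown with 10 bases on each side, in capitals and in gene order, because neighbors with like letters changed in opposite directions, with the position of the first capital relative to the start site.

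Serpinb5 (-140): aagttgggccTGAATCAtgtcttccaa
Serpinb12 (-45): aaaaacaatcTGATTCAcgatcattat
Serpinb11 (-181): aagtatagtgTGATTCAgaaagcacag
Serpinb11 (-76): ggtgaagagcTGAATCAtaacaacaca
Serpinb7 (-45): agggagtgtcTGAGTCAgaggctttat
Serpinb2 (-94): agtaaaatgtTGAATCAtacaaagaat
Serpinb10 (-54): cttgtgaaagTGAATCAagggtggggc
Serpinb8 (-23): gtgggaagtgTGAGTCAcagagtgttc

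A match is a description of the letters and not a binding site. To show the surroundings, the 250 bases before the start of Serpinb7 (chr1:107422439-107422688, plus strand) and before 1 of the starts of Serpinb2 (chr1:107511173-107511422, plus strand) are given with the same letters in capitals.

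Serpinb7: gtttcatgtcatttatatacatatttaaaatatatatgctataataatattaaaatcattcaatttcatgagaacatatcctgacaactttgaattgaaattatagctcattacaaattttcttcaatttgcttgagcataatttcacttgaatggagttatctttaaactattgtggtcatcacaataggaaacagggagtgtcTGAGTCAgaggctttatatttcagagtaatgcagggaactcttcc
Serpinb2: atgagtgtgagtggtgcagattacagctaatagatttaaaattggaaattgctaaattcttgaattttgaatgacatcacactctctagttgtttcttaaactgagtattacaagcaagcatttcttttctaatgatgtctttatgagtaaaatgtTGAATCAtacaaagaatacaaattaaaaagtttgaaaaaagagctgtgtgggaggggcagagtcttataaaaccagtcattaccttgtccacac

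The letters TTCNNNGAA, the pattern that STAT factors are known to bind and that reads the same on both strands, were in 7.02% of all windows and in 9 of the 57 serpin windows. These windows belong to 7 genes, the clade A genes Serpina11, Serpina3f, Serpina3g, and Serpina3i on chromosome 12 and the clade B genes Serpinb2, Serpinb6a, and Serpinb9c, with Serpina11 and Serpina3f each counted in 2 overlapping windows. The matches are shown for 3 genes of the Serpina3 group that follow each other among those reported, of which Serpina3g was down-regulated. They are shown because the bases after the match are nearly the same in all 3.

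Serpina3f (-121): tcagttctatTTCCTAGAAatcacccatt
Serpina3g (-33): taagttatagTTCCCAGAAatcacccggt
Serpina3i (-102): taagtgcttgTTCCCAGAAatcacccagt

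The letters CACGTG (6.02% of all windows) and TGACGTCA (1.55%) were in 0 of the 57 serpin windows.

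Serpin levels in FPKM spanned several orders of magnitude. Serping1, which blocks the first proteases of complement, had the highest mean (197 FPKM), followed by Serpinb6a, an inhibitor of cathepsin G (192), and Serpinh1 (120.3). The next were Serpina3g (76.2), Serpinf1, an inhibitor of vessel growth (68.7), Serpinb9b (61.7), Serpina3n (49.1), Serpinb7 (41.9), Serpinb6b (41.7), and Serpinb9 (34.0). In the control tumors, Serping1 (216 ± 10.4 FPKM; mean ± SD, n = 3) stood above Serpinb6a (189 ± 11.3) and Serpinh1 (128 ± 7.99). In the Sora-treated tumors, Serpinb6a (195 ± 4.59) had the highest mean, and Serping1 (179 ± 9.73) and Serpinh1 (113 ± 22.2) followed. In all, 25 members had a mean of at least 1 FPKM.

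**Figure D1:**
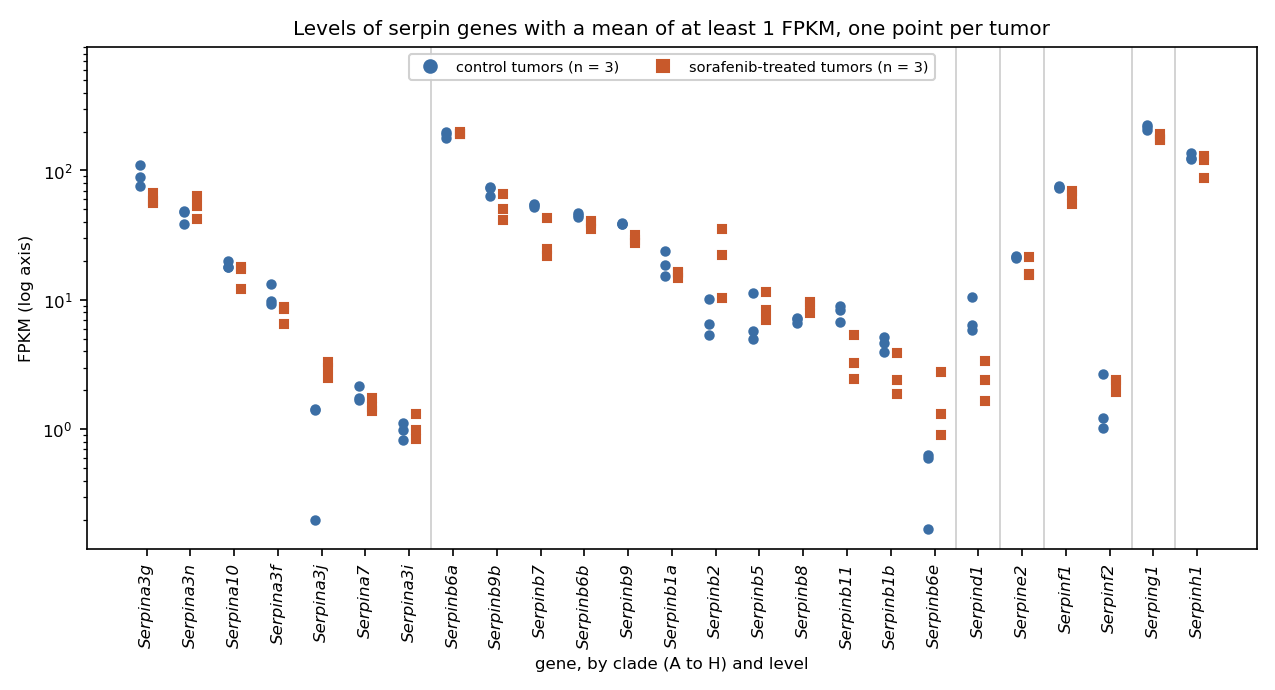
Levels of the 25 serpin genes with a mean of at least 1 FPKM, with 1 point per tumor (log axis, FPKM) and genes ordered by clade and level. Serping1 and Serpinb6a stand highest on average, and the 3 Sora-treated tumors stand above the 3 control tumors in Serpinb2 and below them in Serpind1.

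**Figure D2:**
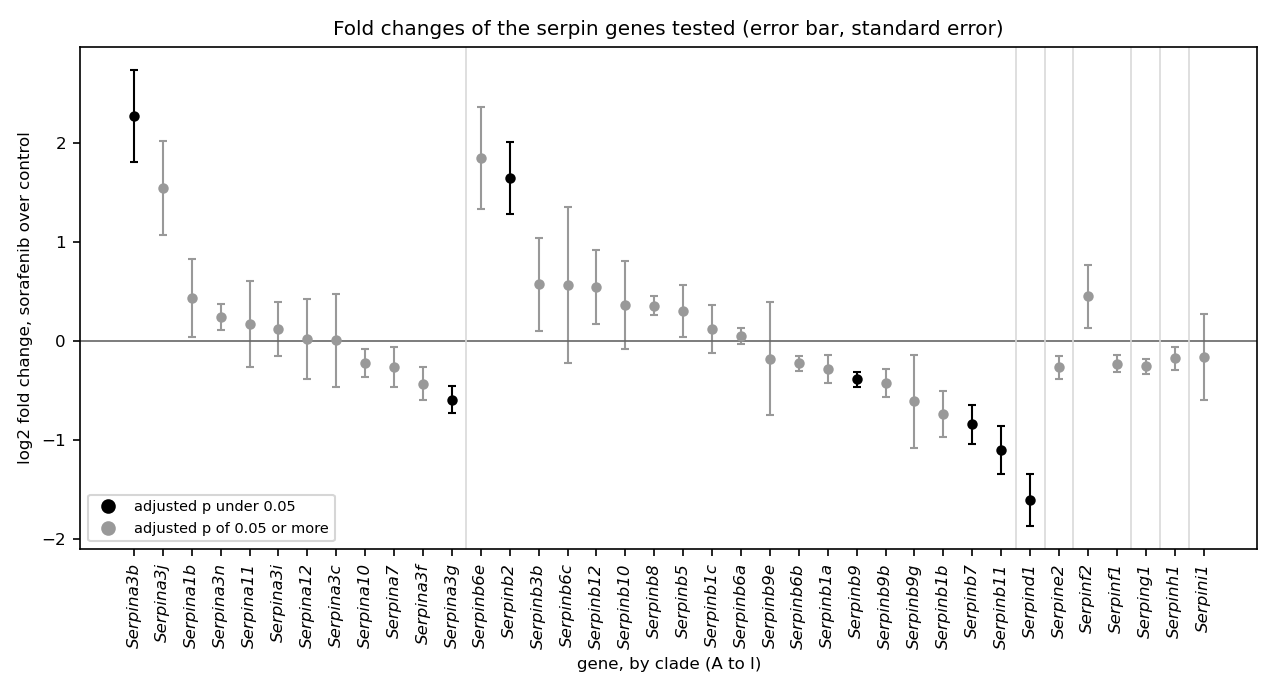
Log2 fold changes (Sora-treated over control) of the 38 serpin genes tested, by clade, with standard errors. The 7 genes with an adjusted p under 0.05 are in black and lie on both sides of 0.

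Serpinb2, plasminogen activator inhibitor 2, which inhibits urokinase and mostly stays inside the cell, was at 20.2, 13.6, and 10.8 CPM in control and 71.9, 20.9, and 46.5 CPM in Sora-treated tumors. The groups did not overlap, but Sora-treated tumor 3 lay just above control tumor 1. The log2 fold change of Serpinb2 was 1.64 (SE 0.36, adjusted p = 0.038, edgeR), with an adjusted p of 0.041 in DESeq2. The summed level of 6 neutrophil markers moved alongside (77.7, 75.4, and 66.8 CPM against 153, 98.9, and 104 CPM), with S100a9 up-regulated, and its part in the Serpinb2 values was not tested. Serpine2, protease nexin 1, which inhibits thrombin and urokinase, was at 54.6, 55.9, and 53.3 CPM in control and 39.7, 54.7, and 41.5 CPM in Sora-treated tumors. The groups overlapped through Sora-treated tumor 3, and the log2 fold change of -0.27 (SE 0.11) did not pass (adjusted p = 0.24, edgeR). Serpine3, a clade E gene, had 2 reads in all and was not tested.

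The targets of these inhibitors were read beside them. Of 8 genes of plasminogen activation, 6 were tested, 2 were up-regulated, and none was down-regulated. These are among 79 partner genes tested here (proteases, receptors, and collagen genes), of which edgeR called 5 (against 3.29% of all genes), and those calls also depended on single tumors. Without control tumor 1, control tumor 4, or Sora-treated tumor 2, Tmprss2 was the only one of the 5 still called, and without Sora-treated tumor 4 edgeR called none of the partner genes (28 had an unadjusted p under 0.05). DESeq2 called 21 of 88 partner genes (against 7.71% of all genes) and edgeR without a count filter called 18 (against 4.54%). All 5 were called by DESeq2, with all tumors and without Sora-treated tumor 4. Plat, tissue-type plasminogen activator, was at 222, 245, and 277 CPM in control and 342, 307, and 399 CPM in Sora-treated tumors, with no overlap (log2 fold change 0.49, SE 0.11, adjusted p = 0.039, edgeR). Plaur, the receptor that holds urokinase on the cell surface, was at 95.8, 109, and 97.3 CPM against 165, 122, and 178 CPM, again without overlap (log2 fold change 0.62, SE 0.13, adjusted p = 0.027, edgeR). This activator, the receptor, and Serpinb2 stood higher in every Sora-treated tumor than in any control. Plau, urokinase itself, was at 93.2 ± 16.3 CPM in control and 89.1 ± 5.56 CPM in Sora-treated tumors, with a log2 fold change of -0.06 (SE 0.11). Anxa2, the gene of this list with the most FPKM (977 on average) and a surface receptor for plasminogen and its activator, had a log2 fold change of 0.44 (SE 0.12, adjusted p = 0.067, edgeR). Plg, the source of plasmin and made mainly in the liver, had 0 to 4 reads per tumor and was not tested.

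**Figure D3:**
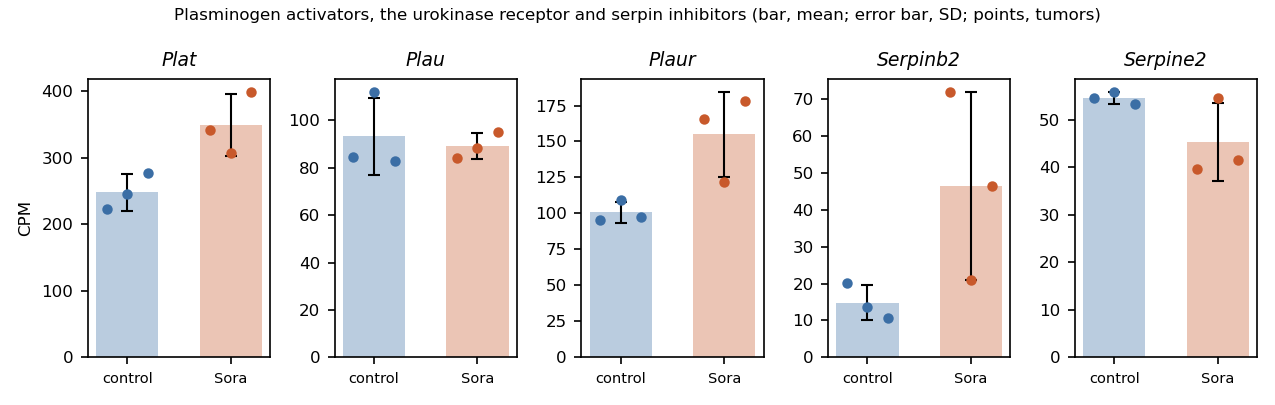
CPM of the plasminogen activators Plat and Plau, the receptor Plaur, and the inhibitors Serpinb2 and Serpine2 in control and Sora-treated tumors (bars, mean; error bars, SD; points, 3 tumors a group). Plat, Plaur, and Serpinb2 do not overlap between the groups, whereas Plau and Serpine2 do.

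Clade A held 22 members, of which 12 were tested, 1 was up-regulated, and 1 was down-regulated. All but Serpina7 form a row on chromosome 12, from 103616675 to 104414334. Serpina3b, a relative of human antichymotrypsin, was a gene of few reads, with 25, 9, and 36 reads in control and 87, 170, and 71 reads in Sora-treated tumors, or 0.681 ± 0.365 against 3.33 ± 1.54 CPM. The groups did not overlap, with a log2 fold change of 2.28 (SE 0.46, adjusted p = 0.029, edgeR). Serpina3j, close to it on the chromosome, was at 3.18, 0.461, and 3.15 CPM in control and 6.65, 7.48, and 5.80 CPM in Sora-treated tumors. Its groups did not overlap either, but control tumor 3 lay far below the other controls, and the log2 fold change of 1.55 (SE 0.48) did not pass (adjusted p = 0.11, edgeR).

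Serpina3g, which inhibits cysteine cathepsins and is known from lymphocytes and bone marrow cells, was the clade A gene with the highest FPKM. It was at 166, 216, and 143 CPM in control and 109, 128, and 111 CPM in Sora-treated tumors. Every Sora-treated tumor lay below every control, and Serpina3g was down-regulated by a log2 fold change of -0.59 (SE 0.13, adjusted p = 0.039, edgeR). Its neighbor Serpina3f was also lower in all Sora-treated tumors, at 20.8, 31.1, and 22.1 CPM against 14.7, 19.3, and 20.7 CPM, but did not pass (log2 fold change -0.43, SE 0.17, adjusted p = 0.20, edgeR). Of the 100-base windows of Serpina3g, 4.64% were shared with another gene, as were 3.58% of those of Serpina3f. A small share of their reads thus could not be told from those of other genes. Serpina3i, with the same TTCNNNGAA neighborhood, was at 2.39 ± 0.397 against 2.59 ± 0.590 CPM (log2 fold change 0.12, SE 0.27).

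Serpina3n, an acute phase protein that inhibits granzyme B and neutrophil elastase, was at 104, 111, and 85.5 CPM in control and 141, 118, and 97.5 CPM in Sora-treated tumors. The groups overlapped, and the log2 fold change was 0.24 (SE 0.13, adjusted p = 0.39, edgeR). Serpina10, the protein Z-dependent inhibitor of clotting factor X, was at 29.6 ± 2.47 CPM in control and 25.2 ± 5.31 CPM in Sora-treated tumors (log2 fold change -0.23, SE 0.14). Serpina7, which carries thyroxine, was at 4.56 ± 0.729 against 3.79 ± 0.386 CPM (log2 fold change -0.27, SE 0.20). The other tested clade A genes, Serpina1b, Serpina3c, Serpina11, and Serpina12, had means under 1 FPKM and log2 fold changes from 0.0042 to 0.44, none of which passed.

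The alpha-1 antitrypsin genes, which are among the most active genes of the mouse liver, were close to silent in these tumors. Serpina1b had 203 reads over the 6 tumors, Serpina1a 28, Serpina1d and Serpina1e 5 each, and Serpina1c 3. These copies are alike, and the share of their 100-base windows found in another gene was 58.5% for Serpina1c, 49.9% for Serpina1a, 29.3% for Serpina1d, 20.6% for Serpina1b, and 14.8% for Serpina1e, so the split between them is uncertain. Serpina6, which carries corticosteroids and is also a liver gene, had 5, 17, and 34 reads in control and 3, 2, and 4 reads in Sora-treated tumors, which lay below all controls, and it was too low to be tested.

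Clade B was the largest, with 25 members, of which 19 were tested, 1 was up-regulated (Serpinb2), and 3 were down-regulated. Serpinb7, also called megsin, was at 99.9, 107, and 97.3 CPM in control and 40.9, 80.2, and 48.2 CPM in Sora-treated tumors. The controls lay close together, and the Sora-treated tumors lay below them and were spread wide, with tumor 3 the nearest to the controls. The log2 fold change of Serpinb7 was -0.85 (SE 0.19, adjusted p = 0.042, edgeR). Its neighbor Serpinb11 was at 13.7, 15.7, and 11.4 CPM in control and 4.12, 9.05, and 5.74 CPM in Sora-treated tumors. The tumors stood in the same order among the treated ones as for Serpinb7, again without overlap with the controls, and the log2 fold change was -1.11 (SE 0.24, adjusted p = 0.038, edgeR). Among the treated tumors, Serpinb2 stood in the opposite order, with tumor 2 the highest and tumor 3 the lowest.

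The same row holds genes known from squamous epithelium. Serpinb5, maspin, was at 29.8, 13.8, and 15.4 CPM in control and 30.8, 18.9, and 23.1 CPM in Sora-treated tumors, with overlap and a log2 fold change of 0.30 (SE 0.26, adjusted p = 0.62, edgeR). Control tumor 1 and Sora-treated tumor 2 were the highest. The same tumors were the highest for the summed level of 11 keratinocyte markers (1242, 406, and 485 CPM in control and 1129, 855, and 799 CPM in Sora-treated tumors), of which none was called and all 11 had a log2 fold change above 0. Serpinb2 also had its highest control in tumor 1 and its highest Sora-treated value in tumor 2, and the part of the keratinocyte markers in the Serpinb2 values was not tested. In Serpinb7 and Serpinb11, control tumor 1 lay between the other controls. Serpinb8, an inhibitor of furin at the other end of the row, was at 23.5, 22.7, and 24.3 CPM against 26.4, 31.8, and 31.8 CPM. Its groups did not overlap, and the log2 fold change of 0.35 (SE 0.096) did not pass (adjusted p = 0.074, edgeR). DESeq2 called Serpinb8 (adjusted p = 0.037). Serpinb3b, Serpinb10, and Serpinb12 had means under 1 FPKM and log2 fold changes from 0.36 to 0.57, none of which passed.

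**Figure D4:**
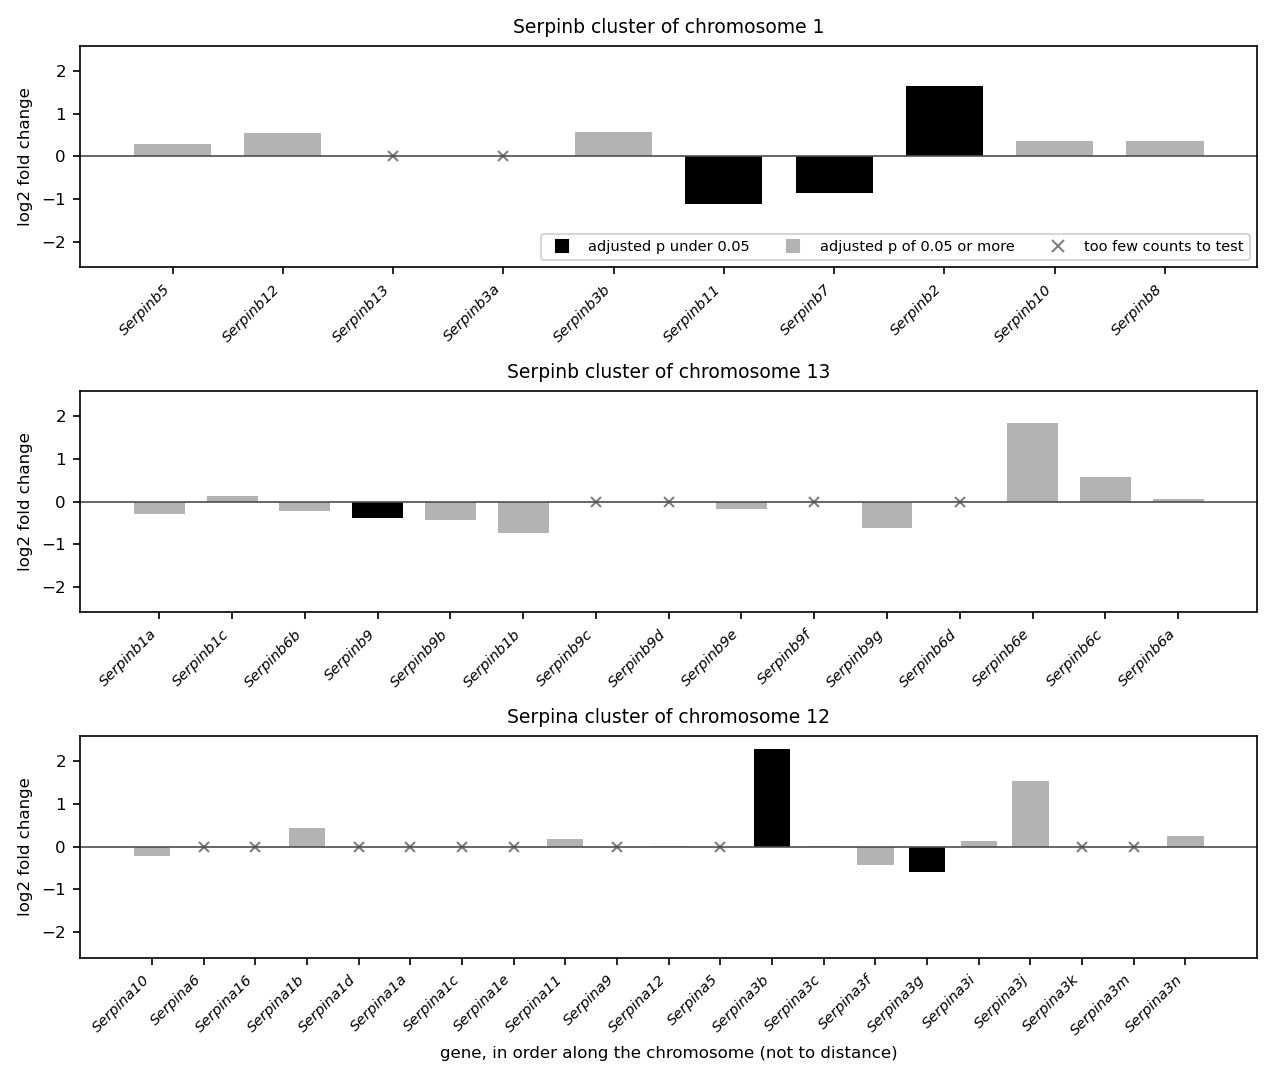
Log2 fold changes of the serpin genes in the 3 chromosomal rows, in gene order and not to distance (black, adjusted p under 0.05; gray, not passed; cross, too few counts to test). In the chromosome 1 row, Serpinb11 and Serpinb7 (-1.11 and -0.85) stand next to Serpinb2 (1.64).

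The second group of clade B genes, on chromosome 13 from 32842092 to 34002794, has 15 members, of which 11 were tested and 1 was called. Serpinb9, the inhibitor that protects cells from granzyme B, was at 202, 209.9, and 205 CPM in control and 145, 167, and 158 CPM in Sora-treated tumors. The controls differed little, all Sora-treated tumors lay below them, and the log2 fold change was -0.39 (SE 0.076, adjusted p = 0.023, edgeR). Its neighbor Serpinb9b, known to inhibit granzyme M, was at 122, 150.3, and 143 CPM against 81.0, 128, and 101 CPM. These groups overlapped, because Sora-treated tumor 3 lay above control tumor 1. The log2 fold change of -0.42 (SE 0.14) did not pass (adjusted p = 0.14, edgeR), but DESeq2 called Serpinb9b (adjusted p = 0.025). Serpinb6b, known to inhibit granzyme A, was lower in all Sora-treated tumors, at 111, 113, and 106 CPM against 84.8, 97.8, and 98.5 CPM, but did not pass (log2 fold change -0.23, SE 0.079, adjusted p = 0.16, edgeR).

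Serpinb1b, a close relative of the elastase inhibitor Serpinb1a, was at 10.2, 9.18, and 11.6 CPM in control and 4.22, 8.73, and 5.62 CPM in Sora-treated tumors. The groups did not overlap, and the log2 fold change of -0.74 (SE 0.23) did not pass (adjusted p = 0.12, edgeR). DESeq2 called Serpinb1b (adjusted p = 0.020). Serpinb1a itself was at 47.0 ± 11.6 CPM against 38.5 ± 2.39 CPM, with a log2 fold change of -0.29 (SE 0.14). Serpinb6e, the third gene from the other end of the row, was at 0.966, 0.276, and 0.932 CPM in control and 2.05, 4.35, and 1.48 CPM in Sora-treated tumors. Its groups did not overlap, but the log2 fold change of 1.85 (SE 0.51) did not pass (adjusted p = 0.078, edgeR). DESeq2 called Serpinb6e (adjusted p = 0.0032). Serpinb6e, Serpina3b, and Serpina3j shared the same extremes, with control tumor 3 the lowest and Sora-treated tumor 3 the highest of the 6.

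Serpinb6a, the clade B gene with the highest FPKM, was at 391, 427, and 368 CPM in control and 400.2, 398, and 432 CPM in Sora-treated tumors. The groups overlapped, with a log2 fold change of 0.05 (SE 0.081, adjusted p = 0.80, edgeR). Serpinb6c had 79, 9, and 7 reads in control and 67, 23, and 49 reads in Sora-treated tumors, with control tumor 1 and Sora-treated tumor 2 the highest, as in the keratinocyte markers. The others tested, Serpinb1c, Serpinb9e, and Serpinb9g, had means under 1 FPKM, and 10.1% of the windows of Serpinb9e and 38.5% of those of Serpinb9g were shared with other genes.

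Serpind1, heparin cofactor II, which inhibits thrombin and is made by the liver, had the lowest log2 fold change of the serpin genes tested. It was at 12.4, 14.5, and 22.7 CPM in control and 5.27, 7.27, and 3.71 CPM in Sora-treated tumors. All Sora-treated tumors lay below all controls, with control tumor 4 the highest, and the log2 fold change was -1.61 (SE 0.26, adjusted p = 0.015, edgeR). Of 10 genes of clotting and the contact system (proteases and the receptors F3 and Thbd), 9 were tested and none was called. F7, the one with the most FPKM (23.4 on average), was at 48.6 ± 16.1 CPM in control and 37.7 ± 2.02 CPM in Sora-treated tumors (log2 fold change -0.37, SE 0.19). Serpinc1, antithrombin and the only clade C member, had 1, 8, and 2 reads in control and 1, 1, and 7 reads in Sora-treated tumors and was not tested. The hepatocyte markers moved in both directions, with Alb (log2 fold change -0.55) and Ttr (-2.15) down-regulated and Apoa1 (1.03) and Hnf4a (0.80) up-regulated, and their part in the Serpind1 values was not tested.

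**Figure D5:**
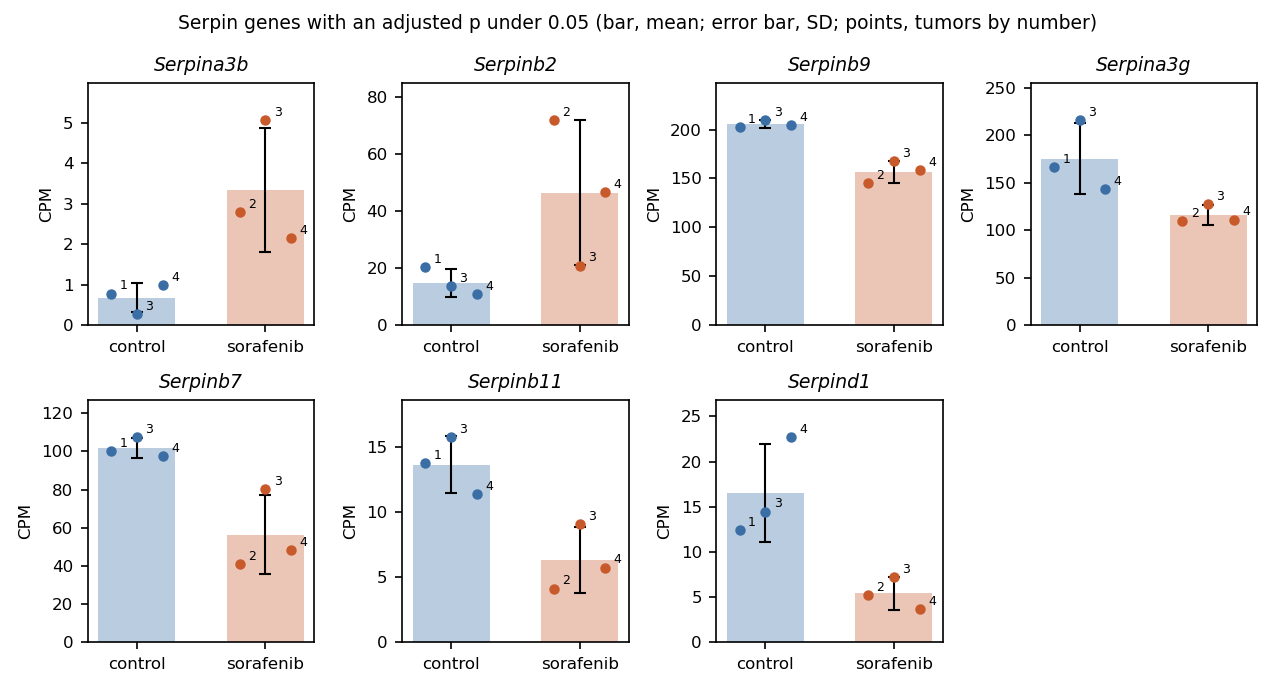
CPM of the 7 serpin genes with an adjusted p under 0.05 in the 3 control and 3 Sora-treated tumors (bars, mean; error bars, SD; points, tumors by their number). Serpina3b and Serpinb2 are higher and the other 5 are lower in all Sora-treated tumors.

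None of the clade F, G, H, and I members passed edgeR's test, and DESeq2 called Serping1 (adjusted p = 0.027). Serping1 was at 387, 422, and 371 CPM in control and 312, 344, and 331 CPM in Sora-treated tumors. The groups did not overlap, and the log2 fold change was -0.26 (SE 0.079, adjusted p = 0.11, edgeR). Its target C1s1, with the most FPKM of the 6 complement proteases tested (242), was at 813 ± 19.7 against 692 ± 124 CPM (log2 fold change -0.23, SE 0.12), and none of the 6 was called. Serpinf1 was at 106, 117, and 110.3 CPM in control and 96.1, 103, and 84.5 CPM in Sora-treated tumors, without overlap (log2 fold change -0.23, SE 0.085, adjusted p = 0.18, edgeR). Serpinf2 was at 3.57 ± 1.93 against 4.89 ± 0.454 CPM, with overlap (log2 fold change 0.45, SE 0.32). Serpini1, neuroserpin, had 35, 17, and 26 reads in control and 18, 33, and 17 reads in Sora-treated tumors (log2 fold change -0.16, SE 0.44).

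Serpinh1, the collagen chaperone, was at 281, 290.0, and 315 CPM in control and 279.8, 296, and 209 CPM in Sora-treated tumors. The groups overlapped, only Sora-treated tumor 4 was low, and the log2 fold change was -0.18 (SE 0.12, adjusted p = 0.50, edgeR). Of 18 genes of collagen synthesis, 1 was called. P4ha2, which hydroxylates proline in collagen, was up-regulated, at 83.1, 97.7, and 83.7 CPM in control and 120.7, 121.4, and 120.7 CPM in Sora-treated tumors (log2 fold change 0.46, SE 0.080, adjusted p = 0.019, edgeR). P4hb, a subunit of the same enzyme and the gene of the list with the most FPKM (442), was at 1273 ± 71.4 against 1257 ± 11.4 CPM. The summed level of 8 fibroblast markers, collagen genes among them, was 7709 to 7975 CPM in control and 5460 to 6866 CPM in Sora-treated tumors, with none called, and that of 8 macrophage markers was 2816 to 3183 CPM and 2307 to 2844 CPM. Their part in the values of Serping1, Serpinf1, and Serpinh1 was not tested.

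The proteases that clade A and clade B members trap were read in the same way. Of 10 granzymes, 9 were tested and none was called, with log2 fold changes below 0 in 7 and a median of -0.47. Gzmb, with the most FPKM (39.1), was at 76.2, 83.1, and 48.5 CPM in control and 36.9, 46.5, and 64.7 CPM in Sora-treated tumors, with overlap (log2 fold change -0.49, SE 0.21, adjusted p = 0.27, edgeR). The summed level of 7 T and cytotoxic cell markers was 286, 297, and 223 CPM in control and 185, 215, and 221 CPM in Sora-treated tumors, with Cd8b1 down-regulated, and its part in the Serpinb9 and Serpina3g values was not tested. Of 10 cysteine cathepsins, Ctsl was up-regulated, at 609, 690.2, and 626 CPM against 936, 786, and 1057 CPM (log2 fold change 0.53, SE 0.11, adjusted p = 0.030, edgeR). The other 9 had log2 fold changes below 0 and did not pass, among them Ctss, with the most FPKM of the list (583), at -0.47 (SE 0.14, adjusted p = 0.098, edgeR).

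Of 11 neutrophil and mast cell proteases, 10 were in the table, 6 were tested, and none was called, and Mcpt4, with the most FPKM (47.0), was at 43.4 ± 7.98 against 49.6 ± 9.79 CPM. Of 11 epithelial serine proteases, 10 were tested. Tmprss2, a membrane protease and the one with the most FPKM, was down-regulated, at 94.2, 106, and 92.1 CPM in control and 44.2, 67.3, and 44.6 CPM in Sora-treated tumors, with no overlap (log2 fold change -0.91, SE 0.15, adjusted p = 0.014, edgeR). Among the treated tumors, tumor 3 was the nearest to the controls, as for Serpinb7 and Serpinb11. None of the 5 receptors that clear serpin complexes was called, and Lrp1, the one with the most FPKM (30.3), was at 468 ± 9.61 against 447 ± 43.2 CPM.

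The 18 members that were not tested had from 1 (Serpina16) to 65 (Serpina6) reads over the 6 tumors. They were Serpinc1, Serpine3, 10 clade A genes, and 6 clade B genes, among them Serpinb9f, in which 52.3% of the windows were shared with other genes. Without the count filter, all 56 members were tested, and of these 18 edgeR called Serpina6, corticosteroid-binding globulin, at 5, 17, and 34 reads in control and 3, 2, and 4 reads in Sora-treated tumors, with 4.54% of all genes called. The lowest control and the highest Sora-treated tumor were 1 read apart. In the others, a difference was not detected at this depth.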

How the data were processed

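Hepa1-6 tumors, 3 control and 3 treated with Sora, were profiled by RNA-seq, with 1 library each. The authors deposited a table of counts, the reads counted on each gene without normalization, and a table of FPKM, those counts divided by gene length and total count. The paper's methods name Bowtie2 and GRCm38, whereas the submitters' processing notes name HISAT2, HTSeq, and GRCm39, so coordinates are RefSeq's for GRCm38.p6, matched by symbol. Strand use was not given in the sources used here. Counts of 5 tumors were at hand. For Sora-treated tumor 4, they were derived from FPKM with the lengths that the 5 others imply (20951 genes recovered, all values within 0.001 of a whole number). Each of the 5 other tumors came back exactly when treated in the same way. In Sora-treated tumor 4, 342 genes with 512 reads, none of them serpins, had no length and were left at 0.

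A gene was tested if 3 or more tumors had 10 or more counts. The test was that of edgeR 4.0.16 (quasi-likelihood test, TMM scaling, all 6 tumors, treatment as the only factor) in R 4.3.3, with Benjamini-Hochberg adjustment over 16513 genes and a threshold of 0.05, two-sided. The standard error is the log2 fold change divided by the square root of F. The scripts were tested on simulated data. Alternatives were DESeq2 1.42.0, other scalings and filters, limma 3.58.1 on log2(FPKM + 1) and log2(FPKM + 0.1), a block for the replicate number, and leaving out each tumor. DESeq2 on the 5 deposited columns was added after the data were seen.

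The members and lists were chosen with earlier results of these data known. Of the 57 genes that match the rule for members, 1 is not reported here and was left out of the serpin counts and figures, but not of the fits. Tumor values were given for serpins with an adjusted p under 0.05, those with at least 1 CPM and no overlap between groups, the 10 with the highest FPKM, and the highest of each clade. Of each protease list, the called genes and the gene with the highest FPKM were named. Other members were added after their values were seen. Read sharing is the share of 100-base windows of 1 GENCODE transcript per gene, the longest coding one, found unchanged in another gene. Windows with any difference were not counted, so near copies could share more reads than this. Tpsab1 was not analysed here. Each tumor had 31073830 or more reads, and the part of counting error in the spread between tumors was not measured.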

Additional observations from a re-analysis of the deposited data

How the results depend on the processing

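The 7 called serpin genes kept their direction in every setting that gave them a value. The counts of up-regulated and down-regulated serpin genes, of all called genes, and of called partner genes (proteases, receptors, and collagen genes) were 2, 5, 543, and 5. Other scalings in edgeR (size factors of DESeq2, total counts, upper quartile) called the same 7 serpin genes. DESeq2 gave 4 up-regulated serpin genes, 1194 called genes, and 21 partner genes. Without a count filter, there were 5 up-regulated and 8 down-regulated serpin genes, 1147 called genes, and 18 partner genes. With at least 10 counts in every tumor, 1 up-regulated and 5 down-regulated serpin genes were called, and Serpina3b was not tested. limma on log2(FPKM + 1) gave 0 up-regulated and 2 down-regulated serpin genes (Serpind1 and Serpinb9; 15 in either direction had an unadjusted p under 0.05) and 286 called genes. On log2(FPKM + 0.1), it gave 0, 2, and 252, with 3 partner genes. limma on all genes called 0 serpin genes in either direction, 0 genes in all, and 0 partner genes, with 17 serpin genes at an unadjusted p under 0.05. DESeq2 on the 5 deposited columns gave 11 partner genes. Leaving out 1 tumor gave 0 (without control tumor 1 or 4 or Sora-treated tumor 2 or 4) to 2 up-regulated serpin genes, 0 to 8 down-regulated ones (8 without Sora-treated tumor 3), 5 to 1145 called genes, and 0 to 12 partner genes. The cause of these changes was not tested. Whether the shared numbers pair the tumors is not known. The deviations of same-numbered tumors from their group means had correlations of -0.033 and -0.074. Those of tumors 3 and 4 across the groups had 0.198 and 0.153. With so few tumors, these values cannot decide whether the tumors were paired. The fit with the replicate block called 1 up-regulated and 2 down-regulated serpin genes (Serpinb2, Serpinb7, and Serpind1), 125 genes in all, and 3 partner genes, of which Tmprss2 was among the 5 called without it. Serpini1, which was not called, turned from -0.16 to a log2 fold change of 0.23 with the replicate block, 0.16 without control tumor 1, 0.014 without Sora-treated tumor 4, and 0.0096 with DESeq2 on the 5 deposited columns, and was -0.51 without Sora-treated tumor 3.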
